A study of Homo sapiens with 6 samples.

Results

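Heparan sulfate proteoglycans are proteins that carry long sulfated sugar chains at the cell surface and in the matrix. The syndecans cross the membrane, the glypicans are held in it by a lipid anchor, and perlecan and agrin are secreted into basement membranes. The chain is started on a short linker of sugars, extended by exostosin polymerases in the Golgi, and then modified by deacetylation, epimerisation and sulfation, which set the sites where growth factors, chemokines and other proteins bind. Osteoprotegerin, the protein encoded by TNFRSF11B, has a heparin-binding region and is known to attach to heparan sulfate. The genes described here are core proteins of this class and enzymes that build, sulfate and cut the chain, from a list of 36 symbols. Of these, 32 are rows of the count table, which holds 19876 gene symbols in all, and 26 of the 32 had enough reads to be tested. GPC6, HS6ST2, HS3ST1 and HS3ST3A1 were not analysed here.

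RNA sequencing libraries were made from A549 cells, a cell line long grown in culture from a human lung adenocarcinoma and labelled wild type (WT). In one group the cells were cultured with rhTR11B (3 libraries). The other group received phosphate-buffered saline (PBS) as the negative control (3 libraries). Both groups grew in the same serum-containing medium. The labels give neither a dose nor a time, do not spell out rhTR11B (TR11B is a short name of osteoprotegerin), and call the replicates biological without saying whether they were separate cultures. The p-values reflect only how far these libraries differ within a group, a spread that may be technical if they were not. Because RNA was taken from whole cultures, a change in the cells that express a gene and a change in RNA per cell cannot be told apart.

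Library totals ran from 36315751 to 36992958 counts with rhTR11B and from 37203313 to 38148838 with PBS. The keratin genes KRT7, KRT8 and KRT18 were abundant in both groups, from 361 to 907 CPM (read counts scaled to a common library size) on average with rhTR11B and from 377 to 924 with PBS. The epithelial markers EPCAM, KRT19 and CDH1 stood near 0 in both, with no library above 0.274 CPM. Summed markers of fibroblasts (6 of 7 in the table) lay between 4.35 and 6.49 CPM with rhTR11B and between 2.75 and 3.70 CPM with PBS. Most of that was COL1A1, and DCN was at 0 in every rhTR11B library. Summed endothelial markers (4 of 6 in the table) and blood cell markers (2 of 7 in the table) did not exceed 0.589 CPM in any library. The 13 mitochondrially encoded genes held 8.75%, 7.88% and 10.4% of counts with rhTR11B, against 7.71%, 6.63% and 7.31% with PBS. Cytosolic ribosomal protein genes held 4.54%, 4.54% and 3.83% with rhTR11B, against 4.97%, 5.07% and 5.12% with PBS. On the first principal component rhTR11B replicate 3 (25.7) and PBS replicate 2 (-18.4) were the libraries farthest apart. The part of these differences in the results below was not tested.

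In cells given rhTR11B, transcripts of several heparan sulfate core proteins and of 1 chain polymerase were higher than in cells given PBS. Of the 26 tested genes, 5 rose at a Benjamini-Hochberg adjusted p under 0.05 in edgeR's quasi-likelihood test (19.2%), where 2.92% of all 13567 tested genes rose. These were the syndecans SDC1 and SDC4, the glypican GPC1, the secreted perlecan HSPG2 and the chain polymerase EXT2. None of the 26 fell by that test, where 0.678% of all genes did. The list was chosen with earlier results of these data known, so these shares describe it and are not an independent test. Before adjustment, p was under 0.05 for 16 of the 26 with a positive log2 fold change and for 0 with a negative one. Over all 13567 tested genes it was so for 1878 with a positive and 1401 with a negative one. The Wald test of DESeq2 called 7 of the listed genes higher and 0 lower. Of the 10627 genes to which it gave an adjusted p, it called 733 higher and 369 lower. On the log2(FPKM + 1) scale limma-trend called 0 of the 25 that passed its filter (GPC2 did not), and 10 had p under 0.05 before adjustment, all positive. Of all 10812 genes in that fit it called 62 higher and 21 lower. Before adjustment, 1307 of them had p under 0.05 with a positive value and 1595 with a negative one. The increases were small, from 1.17-fold for SDC4 to 1.38-fold for HSPG2.

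Of 9 tested core proteins 4 rose, where 2.92% of all tested genes rose, and 8 of the 9 had all 3 rhTR11B libraries above all 3 PBS libraries, where 15.1% of all tested genes did. Among the 17 tested enzymes, 1 rose (5.88%) and 4 had rhTR11B libraries wholly above PBS (23.5%). None of the 26 genes had rhTR11B libraries wholly below PBS, where 14% of all genes did. The median log2 fold change was 0.25 for the core proteins, 0.10 for the enzymes and 0.18 for the 26 genes together, against 0.00 for all tested genes. The median length was 4455 bases for the 26 genes and 4007 for the 5 called, against 3981 for all tested genes. Over all genes, those called higher had a median length of 4709 bases and those called lower 2261, and the part of length in the results was not tested. Whether core proteins and enzymes differ from each other was not tested.

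**Figure D1:**
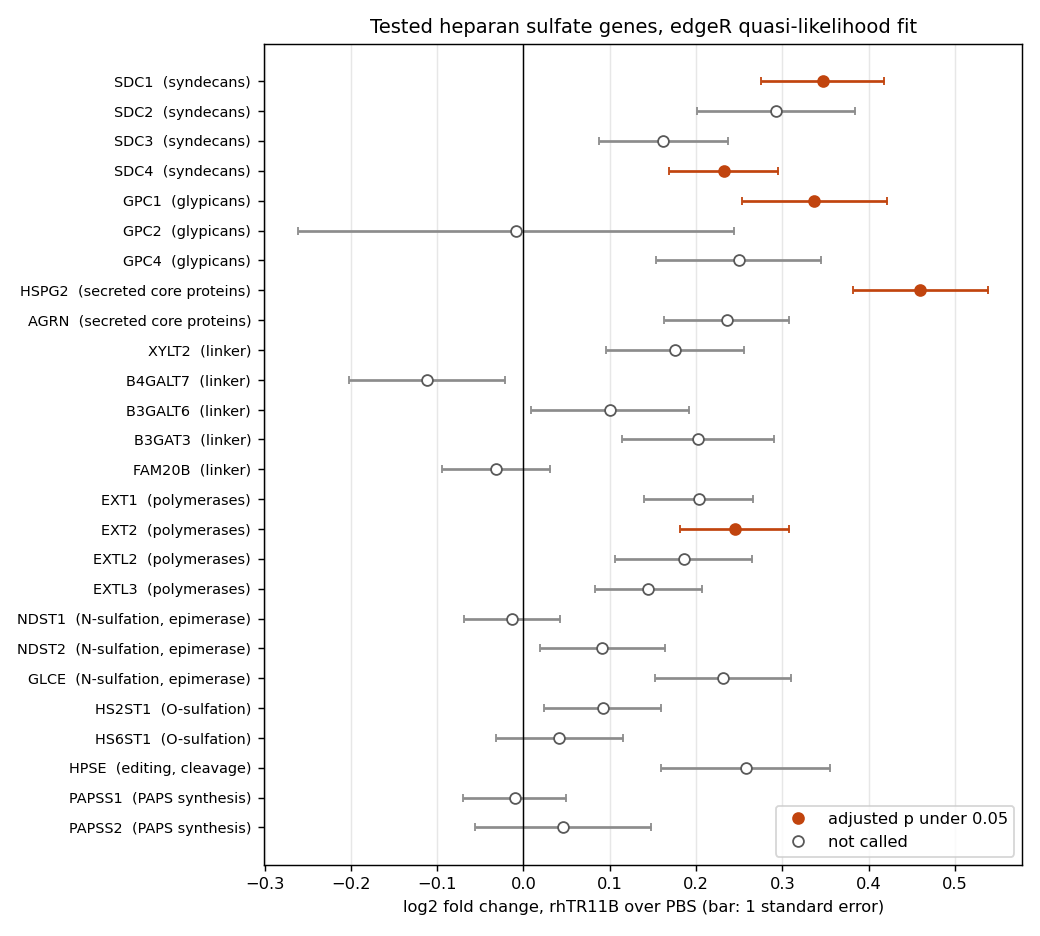
Log2 fold change of each tested heparan sulfate gene, rhTR11B over PBS, with bars of 1 standard error, grouped by role from syndecans at the top to sulfate donor synthesis at the bottom. Filled points mark the 5 genes with an adjusted p under 0.05, and HSPG2 at 0.46 lies farthest to the right.

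The stretches just before the transcription starts of the 5 called genes are shown because these genes moved in the same direction. They are RefSeq sequences on GRCh38.p14, read 5′ to 3′ on the gene's strand, each with 100 bases before the start and 20 from it. Where RefSeq lists several starts, the one listed first was taken. Capitals mark the letters GGGCGG or its reverse complement CCGCCC, the GC box bound by Sp1.
SDC1, chr2:20225456-20225575, minus strand: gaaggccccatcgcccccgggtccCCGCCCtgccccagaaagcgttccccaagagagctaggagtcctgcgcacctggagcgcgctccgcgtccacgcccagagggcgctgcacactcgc
SDC4, chr20:45348405-45348524, minus strand: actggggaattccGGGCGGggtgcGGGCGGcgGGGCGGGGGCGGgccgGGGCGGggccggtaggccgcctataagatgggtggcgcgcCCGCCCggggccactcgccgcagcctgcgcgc
GPC1, chr2:240435563-240435682, plus strand: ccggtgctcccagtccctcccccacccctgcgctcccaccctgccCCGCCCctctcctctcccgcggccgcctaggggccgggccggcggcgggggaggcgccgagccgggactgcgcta
HSPG2, chr1:21937291-21937410, minus strand: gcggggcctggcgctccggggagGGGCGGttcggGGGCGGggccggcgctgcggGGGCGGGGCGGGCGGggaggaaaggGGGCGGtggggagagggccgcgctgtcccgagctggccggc
EXT2, chr11:44095578-44095697, plus strand: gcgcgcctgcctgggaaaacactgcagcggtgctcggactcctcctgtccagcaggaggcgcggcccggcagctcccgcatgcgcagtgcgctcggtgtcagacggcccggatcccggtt

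The printed stretches of SDC4 and HSPG2 each held 6 GC boxes, those of SDC1 and GPC1 held 1 each, and that of EXT2 held 0. Over the full window of 300 bases (250 before the start and 50 after), HSPG2 had 10, SDC4 had 8, GPC1 had 4, SDC1 had 1 and EXT2 had 0. A window was found for 21 of the 26 tested genes, and not for SDC2, AGRN, EXT1, EXTL3 and PAPSS2. Of the 21, 19 held at least 1 GC box, against 70.6% of windows of tested genes and 44.6% of all 27305 windows. The 21 windows were rich in G and C, with a median of 74.7%, against 65.3% for tested genes at large. The TATA box TATAAA stood in 2 of the 21 windows, those of EXT2 and HPSE, against 5.42% of windows of tested genes. The AP-1 site TGACTCA stood in 1, that of NDST1 (2.95% at large), and the E-box CACGTG in 3, those of B3GALT6, EXTL2 and HPSE (9.99% at large). Both strands were searched, and a match describes letters only.

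Before the differences, the levels show which heparan sulfate machinery these cells transcribe. Levels per length are given as the authors' FPKM, which are counts scaled by gene length and library total. Core protein transcripts were dominated by the membrane-spanning SDC4 and the secreted AGRN. SDC4 averaged 121 ± 8.09 FPKM with rhTR11B and 104 ± 2.22 FPKM with PBS, and AGRN 122 ± 9.65 FPKM with rhTR11B and 105 ± 7.01 FPKM with PBS (SD, n = 3 each). Of the summed FPKM of the 10 core proteins in the table, SDC4 held 38.8% ± 0.806 with rhTR11B and 39.2% ± 0.997 with PBS, and AGRN held 39.1% ± 0.773 with rhTR11B and 39.5% ± 0.834 with PBS. Syndecans together made up 51.9% ± 1.14 of the sum with rhTR11B and 52.2% ± 1.12 with PBS, and glypicans 5.44% ± 0.237 with rhTR11B and 5.32% ± 0.186 with PBS. These shares differed by less than the spread between libraries. HSPG2, the core protein with the largest fold change, held 3.23%, 3.96% and 3.43% of the sum with rhTR11B, against 3.14%, 2.94% and 3.07% with PBS, so its groups did not overlap. The share of SDC3 was separate in the other direction, with 4.74%, 4.65% and 4.94% with rhTR11B, against 5.04%, 5.03% and 5.17% with PBS. The sum itself came to 296, 302 and 339 FPKM in the rhTR11B libraries, against 278, 254 and 267 FPKM in the PBS libraries, again without overlap. Counted per read instead of per length, the long AGRN transcript held 57.3% ± 0.290 of core protein CPM with rhTR11B and 58.2% ± 0.619 with PBS, with all rhTR11B libraries below all PBS libraries.

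Several genes of the pathway were nearly silent in both groups. GPC3, a glypican of fetal tissues, had 1 count in rhTR11B replicate 1 and 0 in every other library. XYLT1, one of the paired xylosyltransferases that attach the first sugar, had 0 counts in each rhTR11B library and 1, 0 and 1 counts with PBS, while its partner XYLT2 averaged 14.9 FPKM with rhTR11B and 13.4 FPKM with PBS. EXTL1, an exostosin relative, had 4, 1 and 0 counts with rhTR11B and 1, 0 and 0 with PBS. Of the sulfatases that remove sulfate from finished chains, SULF1 had 1, 0 and 0 counts with rhTR11B and 0 in every PBS library, and SULF2 had 1, 0 and 0 counts with rhTR11B and 0, 2 and 0 with PBS. HS3ST3B1, which adds the rare sulfate at the third carbon of glucosamine, had 0, 1 and 1 counts with rhTR11B and 0, 1 and 0 with PBS. These 6 genes were too low to test, and no fold change is given for them. Even at totals of 36315751 counts or more, a difference between groups in these genes was not detectable.

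**Figure D2:**
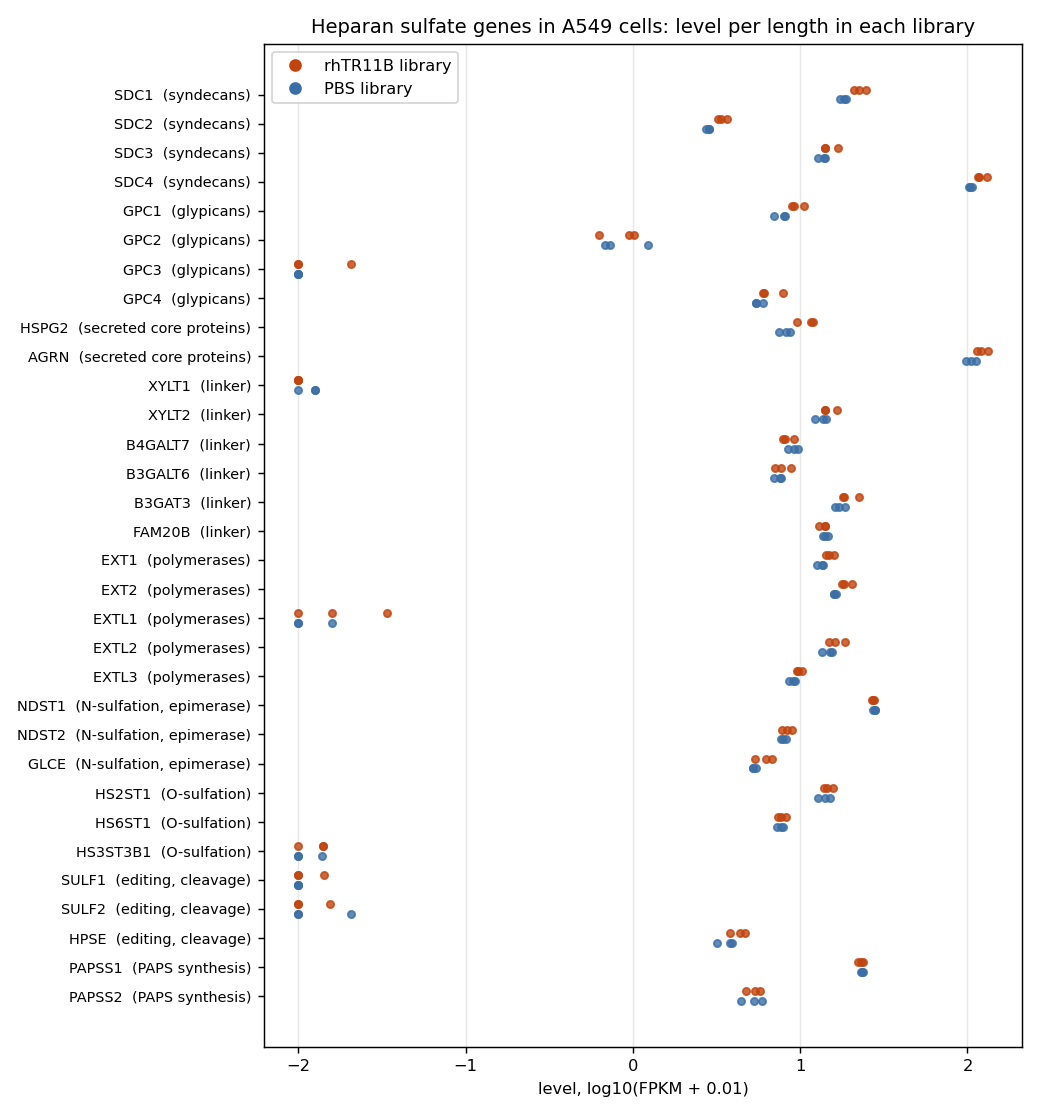
Level of the 32 heparan sulfate genes in each library, as log10(FPKM + 0.01), with rhTR11B libraries drawn above PBS libraries for each gene. SDC4 and AGRN stand highest near 2 on this scale, and GPC3, XYLT1, EXTL1, HS3ST3B1, SULF1 and SULF2 lie at or close to the floor.

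The syndecans have a single membrane-spanning domain and carry heparan sulfate chains on their extracellular part, and they serve as co-receptors for growth factors and integrins. SDC1 (chromosome 2, 20200797 to 20225475 on GRCh38.p14), the syndecan of epithelia, had 84.0, 76.5 and 93.9 CPM in the rhTR11B libraries, against 67.3, 63.4 and 69.2 CPM in the PBS libraries. Its groups did not overlap, and it rose 1.27-fold (log2 fold change 0.35, SE 0.07, edgeR adjusted p = 0.0180). SDC4 (chromosome 20, 45325288 to 45348424), the syndecan of focal adhesions, had 310, 299 and 347 CPM with rhTR11B, against 277, 264 and 272 CPM with PBS. All rhTR11B values exceeded all PBS values by a narrow margin, and the call was close to the threshold (log2 fold change 0.23, SE 0.06, edgeR adjusted p = 0.0497). SDC2 (chromosome 8, 96493813 to 96611790), best known from mesenchymal cells, was the scarcest syndecan, with 13.2, 14.2 and 12.8 CPM with rhTR11B, against 11.1, 10.5 and 11.2 CPM with PBS. Its log2 fold change of 0.29 (SE 0.09) lay between those of SDC1 and SDC4 but missed the threshold (edgeR adjusted p = 0.0718). SDC3, mainly a syndecan of nerve tissue, had 81.8, 80.7 and 98.7 CPM with rhTR11B, against 80.6, 72.9 and 80.0 CPM with PBS. In SDC3 only replicate 3 stood clearly above the PBS libraries, and the difference was not called (0.16, SE 0.07, edgeR adjusted p = 0.192).

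Glypicans sit on the outer leaflet of the membrane and modulate Wnt, Hedgehog and growth factor signals. GPC1 (chromosome 2, 240435663 to 240468076) had 37.0, 35.7 and 43.2 CPM with rhTR11B, against 32.4, 27.5 and 31.9 CPM with PBS. The groups did not overlap, and GPC1 rose 1.26-fold (log2 fold change 0.34, SE 0.08, edgeR adjusted p = 0.0370). GPC4 had 29.9, 29.6 and 39.6 CPM with rhTR11B, against 29.5, 26.7 and 27.1 CPM with PBS. Most of its difference lay in rhTR11B replicate 3, and it was not called (0.25, SE 0.10, edgeR adjusted p = 0.124). GPC2, a glypican of the developing nervous system, was low and scattered, with 1.59, 2.55 and 2.44 CPM with rhTR11B, against 3.10, 1.69 and 1.84 CPM with PBS. Its log2 fold change was -0.01 with an SE of 0.25, so a difference the size of those in GPC1 or GPC4 was not detectable.

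The secreted core proteins anchor heparan sulfate in basement membranes. HSPG2 (perlecan; chromosome 1, 21822244 to 21937310) had 146, 180 and 179 CPM with rhTR11B, against 131, 111 and 124 CPM with PBS. It rose 1.38-fold, the largest log2 fold change of the 26 tested genes (0.46, SE 0.08, edgeR adjusted p = 0.00561), with all rhTR11B libraries above all PBS libraries. Its exons share 1658 bases with exons of LDLRAD2 on the opposite strand, where LDLRAD2 averaged 1 count per library and HSPG2 5382. AGRN (agrin; chromosome 1, 1020120 to 1056116), which also organises the neuromuscular junction, had 930, 972 and 1098 CPM with rhTR11B, against 905, 786 and 858 CPM with PBS. The groups were separate, yet AGRN missed the threshold (log2 fold change 0.24, SE 0.07, edgeR adjusted p = 0.0681). DESeq2 called it.

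**Figure D3:**
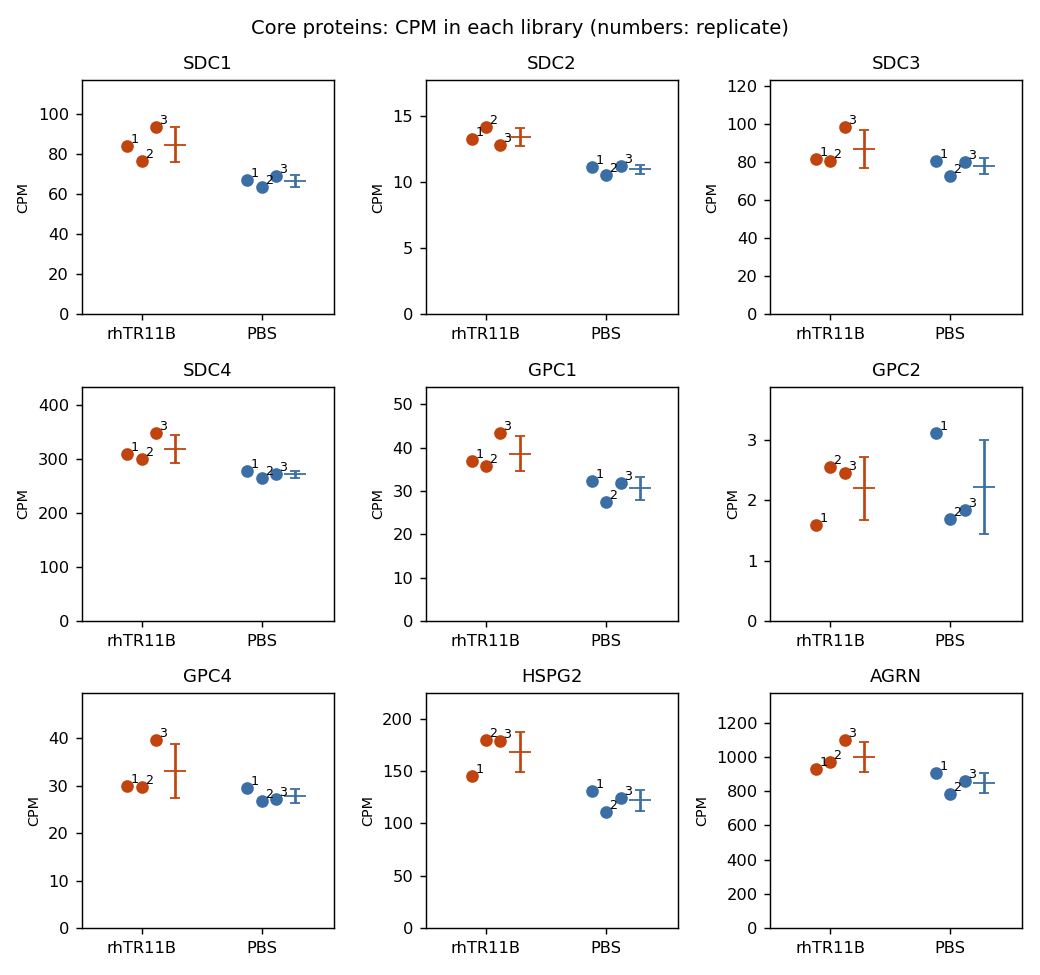
CPM of the 9 tested core proteins in each library, with the replicate number beside each point and the mean and SD of each group at its right. Every gene other than GPC2 has its 3 rhTR11B libraries above its 3 PBS libraries, and HSPG2 shows the largest ratio of group means at 1.38-fold.

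The linker that joins the chain to the core protein is made by a xylosyltransferase, the galactosyltransferases B4GALT7 and B3GALT6 and the glucuronyltransferase B3GAT3, with the xylose kinase FAM20B acting on it. None of its 5 tested genes was called by edgeR. Before adjustment 2 (XYLT2 and B3GAT3) had p under 0.05 with a positive value, where 1878 of all 13567 tested genes did. DESeq2 also called 0. B3GAT3, the highest of them per length, had 39.2, 38.01 and 49.1 CPM with rhTR11B, against 39.4, 35.7 and 34.6 CPM with PBS. Here only rhTR11B replicate 3 exceeded all PBS values (log2 fold change 0.20, SE 0.09, edgeR adjusted p = 0.168). XYLT2 stood at 0.18 (adjusted p = 0.185), B3GALT6 at 0.10 (0.533), FAM20B at -0.03 (0.796) and B4GALT7 at -0.11 (0.475), all with overlapping groups.

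Exostosins extend the chain by adding glucuronic acid and N-acetylglucosamine in turn, EXT1 and EXT2 as a complex and the EXTL proteins in initiation or control. All 4 tested genes of this group had positive log2 fold changes, with a median of 0.19, where 6788 of all 13567 tested genes had positive ones. Of the 4, 1 was called, where 2.92% of all tested genes rose. EXT2 (chromosome 11, 44095678 to 44251962) had 186, 189 and 216 CPM with rhTR11B, against 165, 164 and 169 CPM with PBS. The PBS values were tight and all lay below the rhTR11B values, and EXT2 rose 1.18-fold (log2 fold change 0.24, SE 0.06, edgeR adjusted p = 0.0430). Its partner EXT1 (chromosome 8, 117794490 to 118111826) had 119, 122 and 134 CPM with rhTR11B, against 112, 102 and 111 CPM with PBS. EXT1 showed the same separation but was not called by edgeR (0.20, SE 0.06, adjusted p = 0.0709), while DESeq2 called it. EXTL3 (chromosome 8), which adds the first glucosamine unit, had 80.8, 79.8 and 87.0 CPM with rhTR11B, against 77.3, 70.6 and 76.1 CPM with PBS (0.14, SE 0.06, edgeR adjusted p = 0.163). It shares 105 exon bases with the antisense gene EXTL3-AS1, which averaged 9.83 counts, against 2922 for EXTL3. EXTL2, whose product can end a chain early, stood at 0.19 (adjusted p = 0.161), with overlapping groups.

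Modification of the chain starts with the NDST enzymes, which swap acetyl for sulfate on glucosamine, and with the epimerase GLCE, which turns glucuronic into iduronic acid. NDST1, the most abundant enzyme of the list per length, had 228, 218 and 227 CPM with rhTR11B, against 222, 227 and 230 CPM with PBS. The groups were interleaved, and the log2 fold change of -0.01 had an SE of 0.06. NDST2 stood at 0.09 (SE 0.07). GLCE had 43.9, 50.6 and 56.4 CPM with rhTR11B, against 42.1, 43.6 and 42.8 CPM with PBS. The PBS libraries were close together and all below the rhTR11B libraries, but GLCE was not called (0.23, SE 0.08, edgeR adjusted p = 0.0873). DESeq2 called 0 of these 3 genes.

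The O-sulfotransferases act last. Of this group HS2ST1, which sulfates iduronic acid, and HS6ST1, which sulfates glucosamine, could be tested. HS2ST1 had 102, 104 and 116 CPM with rhTR11B, against 101, 108 and 93.0 CPM with PBS, and its groups overlapped (0.09, SE 0.07, edgeR adjusted p = 0.429). HS6ST1 stood at 0.04 (SE 0.07, adjusted p = 0.772). Heparanase, HPSE, cuts finished chains outside the cell and in lysosomes. It had 20.5, 17.7 and 22.3 CPM with rhTR11B, against 18.1, 17.5 and 14.9 CPM with PBS, with rhTR11B replicate 2 inside the PBS range (0.26, SE 0.10, edgeR adjusted p = 0.118). The enzymes that make PAPS, the sulfate donor for all these steps, showed no called difference: PAPSS1 had 66.8, 63.9 and 62.9 CPM with rhTR11B, against 64.6, 63.8 and 66.6 CPM with PBS (-0.01, SE 0.06), and PAPSS2 stood at 0.05 (SE 0.10). In these 3 groups neither edgeR nor DESeq2 called any of the 5 genes, and before adjustment HPSE was the 1 gene with p under 0.05. Of all 13567 tested genes, 3279 had an edgeR p under 0.05 before adjustment.

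The libraries did not contribute evenly. rhTR11B replicate 3 was the highest of the 6 libraries for 18 of the 26 tested genes, against 31.2% of all tested genes, and PBS replicate 2 was the lowest for 15 of the 26, against 23.2%. For core proteins PBS replicate 2 was the lowest library in 8 of 9. The median deviation of the 26 genes from their PBS mean, in log2 CPM, was 0.10, 0.09 and 0.33 in rhTR11B replicates 1, 2 and 3, against 0.04, -0.06 and 0.03 in PBS replicates 1, 2 and 3. For the core proteins it was 0.19, 0.20 and 0.37 with rhTR11B, against 0.09, -0.09 and 0.03 with PBS. For the enzymes it was 0.07, 0.06 and 0.22 with rhTR11B, against 0.03, -0.03 and 0.03 with PBS. In each of these sets the median was higher in every rhTR11B library than in any PBS library, and highest in rhTR11B replicate 3.

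**Figure D4:**
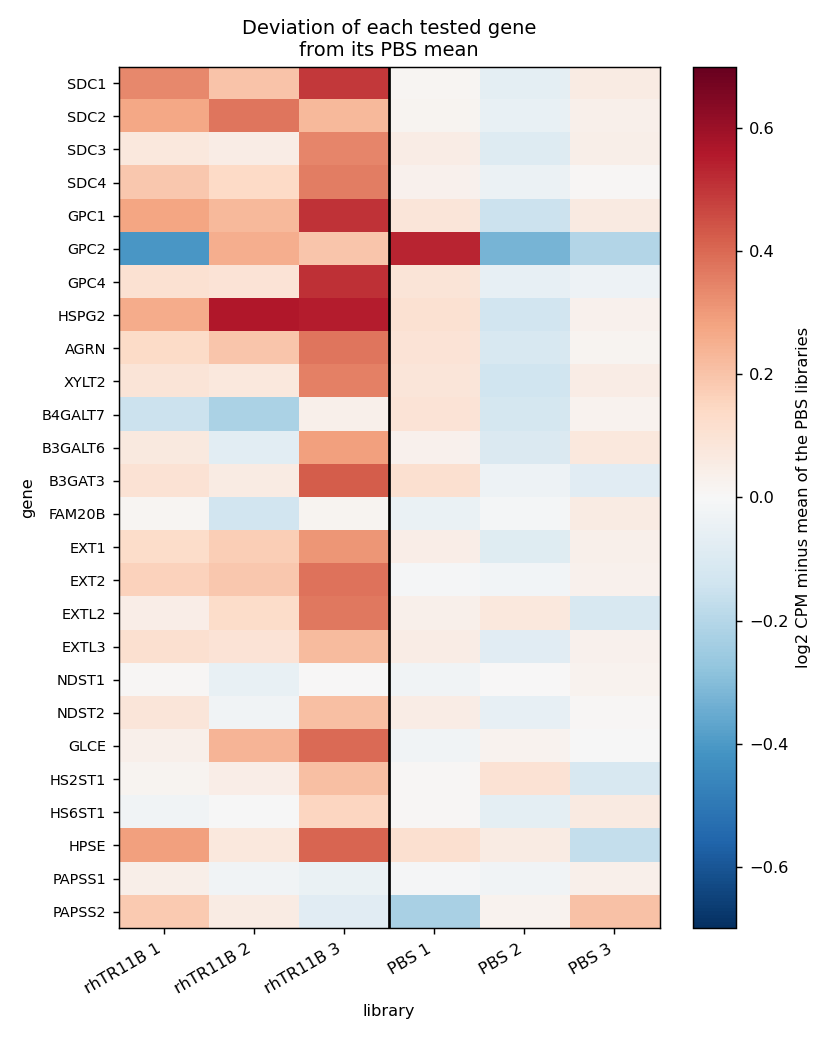
Log2 CPM of each tested heparan sulfate gene in each library minus its mean over the PBS libraries, with rhTR11B libraries left of the black line and PBS libraries right of it. The rhTR11B replicate 3 column is the darkest red for most genes, HSPG2 is also red in replicate 2, and NDST1 and PAPSS1 are pale throughout.

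The number of calls changed with the libraries used. Without rhTR11B replicate 2 it stayed at 5, the same genes, where 385 of all 13730 tested genes were higher. Without PBS replicate 2 0 of the 26 genes were called by edgeR (11 had p under 0.05 before adjustment, all positive), and the adjusted p of the 5 ran from 0.0717 for HSPG2 to 0.217 for SDC4, with log2 fold changes of 0.40 for HSPG2 and 0.31 for SDC1. Without PBS replicate 3 0 were called again (10 had p under 0.05 before adjustment), and theirs ran from 0.0987 for HSPG2 to 0.194 for SDC4, with 0.47 for HSPG2 and 0.37 for SDC1. Over all genes, calls there dropped to 18 and 9 higher. Without PBS replicate 1, HSPG2 and SDC1 passed, where 255 of all 13756 tested genes were higher. Without rhTR11B replicate 3, HSPG2, SDC1 and EXT2 passed, with 3 genes called, and the 26 genes had a median of 0.09. Over all 13749 tested genes, 295 were higher. Before adjustment, edgeR's p was there under 0.05 for 9 of the 26 with a positive value and 1 with a negative one. With rhTR11B replicate 1 left out, 9 of the 26 genes rose, where 903 of all 13761 tested genes rose. Leaving out both libraries farthest apart, an alternative added after the data were seen, kept HSPG2 (0.35, adjusted p = 0.000374) and SDC1 (0.23, adjusted p = 0.0181) and gave a median of 0.076. In that fit 245 of all 13632 tested genes were higher. Its edgeR p before adjustment was under 0.05 for 10 of the 26 with a positive value and 1 with a negative one. Counts before adjustment over all genes were not made for these reduced fits, so those of the 26 have no baseline here.

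Other genes of the wider pathway were taken from lists made by function. Among 4 tested further carriers and regulators of heparan sulfate, 1 rose, where 2.92% of all tested genes did. CD44, a hyaluronan receptor whose longer forms can carry heparan sulfate, averaged 846 ± 74.0 CPM with rhTR11B and 667 ± 18.8 CPM with PBS (log2 fold change 0.34, SE 0.07, edgeR adjusted p = 0.0145). The collagen XVIII gene COL18A1, a basement membrane proteoglycan, stood at 0.22 (adjusted p = 0.0947), betaglycan TGFBR3 at 0.22 (0.131) and the xylose phosphatase PXYLP1 at 0.21 (0.302). SRGN, GPC5, NDST3, NDST4, HS6ST3, HS3ST5 and HS3ST6 were too low to test.

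The sister chains chondroitin and dermatan sulfate share the linker. Of 15 tested genes for their synthesis 2 rose (2.92% of all tested genes did), 8 had rhTR11B libraries wholly above PBS (15.1% of all did), and the median log2 fold change was 0.25. CHST15, which adds a second sulfate to chondroitin units, averaged 41.0 ± 2.25 CPM with rhTR11B and 31.5 ± 0.835 CPM with PBS (0.38, SE 0.07, edgeR adjusted p = 0.00868). The dermatan epimerase DSE averaged 59.3 ± 3.75 CPM with rhTR11B and 49.1 ± 0.370 CPM with PBS (0.27, adjusted p = 0.0323). CHPF2 (0.27, adjusted p = 0.0547) and DSEL (0.21, adjusted p = 0.0598) were not called.

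Of 7 tested lysosomal enzymes that take heparan sulfate apart, 2 rose, where 2.92% of all tested genes did. IDUA, the iduronidase, had the largest difference of the genes named here, with 5.25 ± 0.555 CPM with rhTR11B and 3.30 ± 0.549 CPM with PBS (0.67, SE 0.16, edgeR adjusted p = 0.0339). Its exons overlap 141 bases of SLC26A1 on the opposite strand, which averaged 1.33 counts. The sulfamidase SGSH (0.26, adjusted p = 0.0601), which shares 68 exon bases with CARD14 on the opposite strand (1.67 counts on average), and the acetyltransferase HGSNAT (0.21, adjusted p = 0.0857) were not called, and the iduronate sulfatase IDS was the only one with a negative value (-0.14, adjusted p = 0.180).

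Genes that supply sugar nucleotides, sulfate and PAPS did not pass in edgeR: 0 of 13 tested were called. Before adjustment 7 had p under 0.05 (5 positive and 2 negative), and DESeq2 called 0 higher and 1 lower. Of all 13567 genes tested in edgeR, 1878 had p under 0.05 before adjustment with a positive value and 1401 with a negative one. Of 10627 genes DESeq2 called 733 higher and 369 lower. UGDH, which makes the glucuronic acid donor, had 26.7, 24.98 and 23.2 CPM with rhTR11B, against 28.96, 32.1 and 28.98 CPM with PBS (-0.27, SE 0.08, edgeR adjusted p = 0.0590). The next enzyme, UXS1, which makes the xylose donor from it, stood at 0.19 (adjusted p = 0.0917), and the Golgi transporters SLC35A2 and SLC35B3 at 0.23 each (0.0926 and 0.0950). Among 17 tested ligands and co-receptors that bind heparan sulfate 3 rose, where 2.92% of all tested genes did. These were the Slit receptor ROBO1 (0.29, adjusted p = 0.0211), the fibroblast growth factor receptor FGFR1 (0.30, 0.0294) and the heparin-binding growth factor midkine, MDK (0.32, 0.0429). FGFR4 was not called (0.26, 0.0562). Of 5 tested cytoplasmic partners of syndecans neither edgeR nor DESeq2 called any, and 0 had p under 0.05 before adjustment. The 4 with the smallest p were CASK at 0.10, GIPC1 at -0.11, PDCD6IP at -0.09 and syntenin, SDCBP, at -0.07.

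TNFRSF11B, the gene of osteoprotegerin, was transcribed by the cells themselves at 7.04 ± 0.761 CPM with rhTR11B and 6.22 ± 1.31 CPM with PBS (log2 fold change 0.18, SE 0.15, edgeR adjusted p = 0.479). Added protein is not seen by RNA sequencing, so this value does not check the treatment.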

How the data were processed

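Read counts per gene symbol were deposited for 6 A549 libraries (3 rhTR11B, 3 PBS), grouped by the labels. Per the submitters' processing notes, fastp, HISAT, HTSeq, R 3.2.0, DESeq2 and build GRCh38 were used. No source used here tells which tool made the authors' counts, or whether strand was used. The authors' deposited FPKM were used for levels per length. The gene length implied by count, library total and FPKM was constant across libraries for 100% of values (relative tolerance 0.001). Gene lengths given here are these implied lengths, and no separate source of length was used to check them.

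From the counts, edgeR 4.0.16 (R 4.3.3) was run on the whole table: filterByExpr (minimum count 10), TMM, group as the only term, quasi-likelihood test, Benjamini-Hochberg adjustment over 13567 genes, threshold 0.05. CPM are on TMM-scaled library sizes. SE is the size of the log2 fold change over the square root of F. The steps were tested on simulated data. Totals of 36315751 to 38148838 counts leave the spread between libraries as the main error for expressed genes. Libraries of a group differed by 5.33 to 26.1 times sampling noise (chi-square per degree of freedom), so none was treated as a duplicate.

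Alternatives were other scalings, filters and thresholds, DESeq2 1.42.0, limma 3.58.1 on log2(FPKM + 1) and log2(FPKM + 0.1), a replicate block, and each library left out. Values in every library are given for called members, tested core proteins, the highest member per length of each role, members without overlap and those with a log2 fold change of at least 0.2 in size, and up to 4 genes of each other list with the smallest p are named. The result of 1 gene counted in the lysosomal list is not reported here. The members and lists were chosen with earlier results of these data known. Coordinates and promoter windows are RefSeq GRCh38.p14, and exon overlaps GENCODE 29.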

Additional observations from a re-analysis of the deposited data

How the results depend on the processing

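The count of 5 called members stood beside 396 of all 13567 tested genes called higher. With DESeq2 size factors it was 5 (405 of all genes), and with library size alone 3 (309). The DESeq2 Wald test gave 7 (733 of 10627). At a mean of at least 5 CPM the count was 2 (205 of 10371), and with no low-count filter 9 (940 of 19876). At an adjusted p under 0.1 it was 9 (1056 of 13567), and at 0.01 it was 1 (45). Limma-trend called 0 on log2(FPKM + 1), on log2(FPKM + 0.1) and on log2(FPKM + 1) without a filter, where 10, 11 and 9 had p under 0.05 before adjustment. Over all genes these 3 fits called 62, 64 and 0 higher. Before adjustment, the first of them had p under 0.05 for 1307 genes with a positive value and 1595 with a negative one. For the others such counts over all genes were not made. With one library left out the count ran from 0 to 9, and that of all genes called higher from 9 to 903. Without both libraries farthest apart it was 2, with 245 of all genes higher. The cause was not tested. No member was called lower under any of these settings. The median log2 fold change of the tested members lay between 0.09 and 0.23 with one library left out and was 0.076 without both. Correlations of same-numbered deviations were -0.10, 0.05 and -0.01, and those of differently numbered ones ran from -0.10 to 0.11. With so few libraries, this cannot decide whether replicate numbers pair them. With the replicate block 6 members and 774 genes in all were higher, and 0 members and 252 genes in all were lower. Each called member kept its sign under the other scalings, filters and tools, the replicate block and each left-out library. Signs turned in 8 uncalled members with values near 0. With one library left out, GPC2 ran from -0.17 to 0.31, B3GALT6 from -0.0016 to 0.18, FAM20B from -0.057 to 0.018, NDST1 from -0.028 to 0.0070, HS6ST1 from -0.014 to 0.075, PAPSS1 from -0.036 to 0.0092 and PAPSS2 from -0.061 to 0.15. Without both libraries farthest apart B3GALT6 was -0.052, HS6ST1 -0.050 and NDST2 -0.00095. GPC2 was 0.013 with the replicate block, and PAPSS1 0.00022 at 5 CPM. Genes with a handful of counts are limited by depth.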
